A study of Morone chrysops with 54 samples.

Results

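The 43 contigs described here are liver transcripts of white bass (Morone chrysops), out of 20914 contigs in the files, whose names place them in mitochondria or in oxidative phosphorylation. They were selected on changes measured in these same fish: the study listed the contigs that differed between each of Diets 2 to 6 and Diet 1, and a listed contig was taken when its name held mitochondri, cytochrome c oxidase, cytochrome b, NADH dehydrogenase, ATP synthase, ubiquinone or HIG1, and did not hold ribosomal, glutathione, DNA-binding or acyl-CoA. Those lists give a name to 977 of the 20914 contigs, so mitochondrial transcripts that no list names are outside the 43. The list for Diet 2 named 6 of the 43, that for Diet 3 named 0, that for Diet 4 named 4, that for Diet 5 named 27 and that for Diet 6 named 20. Of the 977 named contigs, these lists held 293, 11, 52, 651 and 253, in the same order. The counts of the 43 depend on the lengths of the lists but do not follow their order. The Diet 2 list was longer than the Diet 6 list and named fewer of the 43. The lists chose the contigs, so nothing is read from these counts. Of the 43 contigs, 34 were listed for 1 diet, 5 for 2 diets, 3 for 3 diets and 1 for 4 diets.

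Livers of juvenile fish were sequenced as 1 poly(A)-selected RNA library per fish, with 9 fish for each of 6 diets, 3 from each of 3 tanks. Diet 2 had low fish meal and high soy, Diet 3 low fish meal with poultry meal, and Diet 4 poultry meal without fish meal. Diet 5 held all plant protein and Diet 6 was a commercial ingredient test (a protein blend with soybean meal). Both were also without fish meal. Diet 1 was the standard fish meal control. Total counts per library were between 5964761 and 17336918, with a median of 11378553. The library of Diet 5 replicate 7 held 755 counts in all, 49 of them (6.49%, exact 95% interval 4.84% to 8.49%) in contigs of the mitochondrial genome, and was left out, so Diet 5 is 8 fish. Levels are CPM, the contig's share of its library's counts scaled by the trimmed mean of M-values (TMM), and differences are log2 fold changes ± SE from edgeR's quasi-likelihood fit. Contig lengths were not used here, so levels are compared between diets and never between contigs.

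The respiratory chain of the inner mitochondrial membrane passes electrons from NADH and from reduced ubiquinone to oxygen, and ATP synthase draws on the proton gradient that this builds. A few core subunits are encoded by the mitochondrial genome, while the other subunits, their assembly factors and the import machinery are products of nuclear genes. In liver, mitochondria also hold enzymes that break down amino acids, dispose of nitrogen, and serve folate, choline, carbohydrate and lipid metabolism.

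By role, 14 of the 43 contigs belonged to the respiratory chain, ATP synthase or ubiquinone, 5 to protein import and folding, and 22 to other mitochondrial functions, mostly metabolism. The label did not match the other 2. Cytochrome b-245 light chain (CYBA) is a subunit of the NADPH oxidase of phagocytes, and NADH-cytochrome b5 reductase 2-like (CYB5R2) reduces cytochrome b5. Among the 41 mitochondrial contigs, 5 were transcripts of the mitochondrial genome and 36 were nuclear. All 43 passed the filter on low counts, a mean count of at least 5, in every comparison.

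The 7 plasma protein markers of hepatocytes (haptoglobin, ceruloplasmin and others) were detected in every fish. Their summed level had a median of 15215 CPM in Diet 2 (13829 to 18445), 14367 in Diet 5 (11945 to 17923) and 8252 in Diet 6 (6055 to 12392), against 13787 in the Diet 1 fish (9789 to 17412). The markers did not move together with Diet 6. Hepcidin was higher, at a median of 724 CPM (223 to 1027) against 65.4 (1.43 to 144) in Diet 1, and alpha-2-macroglobulin-like was at 12.2 against 11.7. Ceruloplasmin, complement C5, complement C4-like, haptoglobin-like and apolipoprotein C-I-like were lower in median. The livers also held transcripts of exocrine pancreas: the summed level of 7 markers, such as trypsin and elastase, ran from 4637 to 116109 CPM in Diet 2, 1462 to 133113 in Diet 3, 219 to 87939 in Diet 4, 6903 to 109890 in Diet 5 and 85.5 to 68313 in Diet 6, against 12830 to 174241 in the Diet 1 fish. Of these 7 markers only chymotrypsin A-like was at 0 in any fish, 1 fish of Diet 6. In a bulk sample, fewer cells of a type and less RNA per cell cannot be told apart. The marker names come from the same lists as the contigs described. The Diet 6 list itself named hepcidin, ceruloplasmin, complement C5 and complement C4-like. Ceruloplasmin, complement C5 and complement C4-like also had the highest hepatocyte marker medians in Diet 1. The lower hepatocyte sum with Diet 6 is therefore a description.

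With Diet 6, the 5 contigs of the mitochondrial genome stood below Diet 1 as a group, and with no other diet did their median move as far. These encode cytochrome c oxidase subunits I and II (COX1, COX2), which belong to the complex that reduces oxygen, and subunits 1, 2 and 5 of NADH dehydrogenase (ND1, ND2, ND5), the entry point of electrons from NADH. Their median log2 fold change was 0.27 for Diet 2, -0.01 for Diet 3, -0.25 for Diet 4, 0.25 for Diet 5 and -0.84 for Diet 6, while the medians over all contigs tested lay between -0.02 and 0.02. With Diet 6, COX1, COX2 and ND5 were past an adjusted p of 0.05 and a 1.5-fold change as lower, where 0.562% of all contigs were. The Diet 6 contrast chose all 5, so its values are a description, and nothing is read from that count.

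COX1 had a median of 28325 (22054 to 35265) CPM with Diet 2, 22595 (16685 to 29773) in Diet 3, 18637 (14242 to 31038) in Diet 4, 26051 (23867 to 33206) in Diet 5, 14111 (4087 to 18397) in Diet 6, against 23356 (18759.8 to 31407) in the Diet 1 fish (lowest and highest fish in brackets, here and below). The log2 fold change of COX1 with Diet 6 was -0.84 ± 0.20, and all 9 fish of Diet 6 lay below all 9 of Diet 1, where the fish did not overlap in 0.276% of all contigs. COX2 had a median of 20889 (16987 to 26547) CPM with Diet 2, 18533 (13243 to 21851) in Diet 3, 15525 (10949 to 21888) in Diet 4, 18661 (15906 to 22621) in Diet 5, 10558 (5767 to 16679.9) in Diet 6, against 17719 (13264 to 22583) in the Diet 1 fish. Its difference with Diet 6 was -0.71 ± 0.16, with 8 of 9 fish below every fish of Diet 1. The lowest fish in both contigs was the same one, Diet 6 replicate 7.

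The NADH dehydrogenase contigs had the same order of diets by median at the low end, Diet 6 and then Diet 4. ND1 had a median of 7842 (6559 to 14342) CPM with Diet 2, 6151 (4223 to 10169) in Diet 3, 4985 (3914 to 8971) in Diet 4, 8007 (5523 to 9536) in Diet 5, 3500.1 (1502 to 7038) in Diet 6, against 5842 (4603 to 10261) in the Diet 1 fish. For ND2 the median was 2413 (1681 to 3797) CPM with Diet 2, 1929.8 (1253 to 3083) in Diet 3, 1587 (1148 to 2697) in Diet 4, 2452 (1663 to 3327) in Diet 5, 1064 (395 to 2013) in Diet 6, against 2051 (1271 to 2875) in the Diet 1 fish. In both, the highest fish of Diet 6 was above the lowest of Diet 1. ND5 showed a median of 24193 (16734 to 34374) CPM with Diet 2, 18019.9 (10964 to 26258) in Diet 3, 14642 (10677 to 25218) in Diet 4, 21226 (16294 to 26412) in Diet 5, 9215 (4996 to 14471) in Diet 6, against 16869 (11470.0 to 26206) in the Diet 1 fish. The log2 fold changes with Diet 6 were -0.81 ± 0.22 for ND1, -0.87 ± 0.22 for ND2 and -0.85 ± 0.18 for ND5, and 8, 6 and 7 of the 9 fish were below every Diet 1 fish. The groups therefore overlapped in these 3 contigs and in COX2, and did not in COX1. Without Diet 6 replicate 7 the differences were -0.73 for COX1, -0.62 for COX2, -0.71 for ND1, -0.75 for ND2 and -0.76 for ND5.

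**Figure D1:**
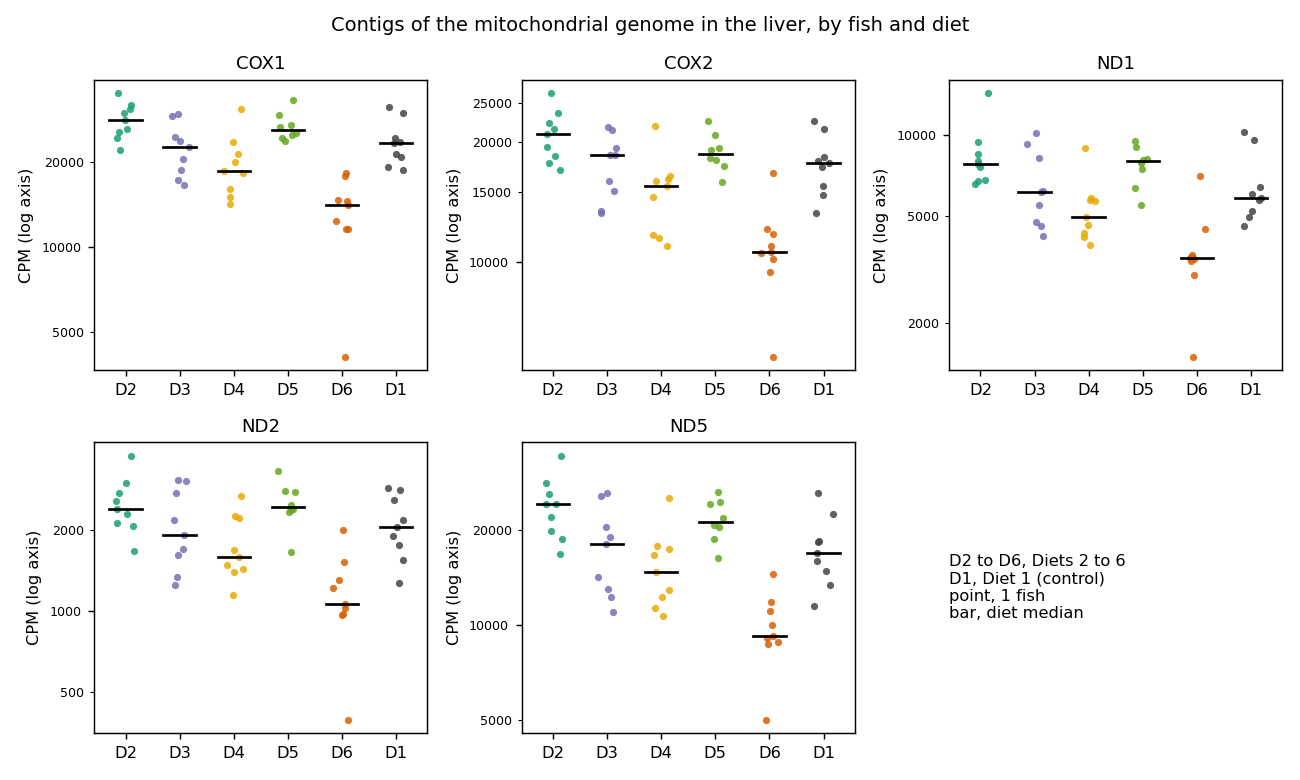
Level of the 5 contigs of the mitochondrial genome in each fish (CPM, TMM-scaled, log axis) by diet. Points are fish and bars are diet medians. The 9 COX1 points of Diet 6 sit between 4087 and 18397, all below the Diet 1 points, which start at 18759.8, and 1 fish of Diet 6 is lowest in all 5 panels.

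The scaling sets the size of this difference. As a plain share of all counts in a library, the 5 contigs of the mitochondrial genome took a median of 7.74% in Diet 2 (6.71% to 9.81%), 6.44% in Diet 3 (4.81% to 8.23%), 5.28% in Diet 4 (5.01% to 8.26%), 7.60% in Diet 5 (5.79% to 9.38%) and 4.82% in Diet 6 (2.26% to 6.59%), against 5.93% in the Diet 1 fish (4.59% to 8.03%). On that scale Diet 6 and Diet 1 overlapped. With library totals alone, the log2 fold changes with Diet 6 were -0.41 for COX1, -0.27 for COX2, -0.38 for ND1, -0.44 for ND2 and -0.41 for ND5, and the median of all contigs was itself at 0.46. The sums of exocrine and of hepatocyte markers were both lower in median in Diet 6 than in Diet 1, 22161 against 114564 CPM and 8252 against 13787 CPM, and their part in this was not tested. Among the hepatocyte markers, hepcidin was higher in Diet 6. The Diet 6 list named the markers that make up most of the hepatocyte sum, so that sum is a description.

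Tags in the file labels allowed the same difference to be read in smaller sets of fish. These are the fish whose contrast chose the 5 contigs, so the tag means are a description and add no support. The T tags, 3 fish each and 3 to a diet, match the number of tanks, though the labels do not say what a T tag is. The T tag means of COX1 were 15766, 14130 and 9939 CPM in Diet 6, against 21376, 24197 and 25521 CPM in Diet 1, and for each of the 5 contigs every Diet 6 mean was below every Diet 1 mean. The L tags, 3 levels crossed with diet, gave COX1 means of 13469, 12933 and 13433 CPM for Diet 6, against 21713, 27458 and 21923 CPM for Diet 1 (n = 3 fish each), and the other 4 contigs were also lower in each L tag.

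The 4 nuclear contigs of the respiratory chain and its assembly differed in direction among themselves. COX4-2, the second isoform of a nuclear subunit of cytochrome c oxidase, had a median of 751 (501 to 1058) CPM with Diet 2, 630.1 (429 to 892) in Diet 3, 518 (438 to 693) in Diet 4, 497 (368 to 639) in Diet 5, 386 (216 to 742) in Diet 6, against 683 (551 to 1028) in the Diet 1 fish. It was lower with Diet 6 (-0.81 ± 0.18), which chose it, and its differences with Diets 4 and 5, which did not list it, were -0.37 ± 0.13 and -0.50 ± 0.14. These differences share the Diet 1 fish, so they are not separate results. HIG1 domain family member 1A (HIG1A), known from mammals as a hypoxia-induced protein of the respiratory complexes, had a median of 11.4 (8.36 to 23.3) CPM with Diet 2, 14.6 (4.65 to 25.6) in Diet 3, 28.9 (11.3 to 45.6) in Diet 4, 25.4 (12.04 to 54.98) in Diet 5, 37.9 (11.1 to 50.8) in Diet 6, against 10.2 (2.51 to 25.7) in the Diet 1 fish. It was listed for 3 diets, with log2 fold changes of 1.12 ± 0.31 for Diet 4, 1.21 ± 0.37 for Diet 5 and 1.41 ± 0.32 for Diet 6. Every fish of these 3 diets was above the Diet 1 median, and 5 of 9, 4 of 8 and 6 of 9 were above the highest Diet 1 fish.

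COX20, a chaperone that stabilises newly made COX2, had a median of 16.3 (9.55 to 29.4) CPM with Diet 2, 13.4 (8.94 to 16.6) in Diet 3, 14.4 (9.43 to 21.6) in Diet 4, 24.8 (15.2 to 32.3) in Diet 5, 16.2 (10.97 to 21.5) in Diet 6, against 12.8 (8.62 to 21.6) in the Diet 1 fish. Diet 5 listed it, at 0.84 ± 0.17, with all 8 fish above the Diet 1 median. COA6, which takes part in delivering copper to COX2, had a median of 1.53 (0.955 to 4.29) CPM with Diet 2, 1.97 (1.06 to 3.69) in Diet 3, 2.199 (0.612 to 4.59) in Diet 4, 4.12 (1.39 to 5.14) in Diet 5, 2.71 (0.739 to 9.41) in Diet 6, against 1.72 (0.355 to 3.48) in the Diet 1 fish. Its log2 fold change with Diet 5 was 1.06 ± 0.33, with 6 of 8 fish above every fish of Diet 1. In Diet 5, COX1 and COX2 were at 0.18 ± 0.12 and 0.10 ± 0.11. Diet 5 listed the 2 assembly factors and did not list COX1 or COX2. The lists thus fixed this contrast, and nothing is read from it.

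The ATP synthase contigs split by role. Subunits C2 and C3 belong to the membrane ring and are encoded in mammals by separate genes for the same mature protein, so reads of the 2 contigs could be shared in counting. C2 (ATP synthase C2) had a median of 727 (635 to 1161) CPM with Diet 2, 896 (719 to 1393) in Diet 3, 821 (547 to 964) in Diet 4, 714 (592 to 889) in Diet 5, 590.3 (472 to 831) in Diet 6, against 934 (729 to 1277) in the Diet 1 fish. Diet 6 listed it (-0.65 ± 0.14), and 7 of 9 fish were below every Diet 1 fish. C3 (ATP synthase C3) had a median of 147 (106 to 272) CPM with Diet 2, 169 (109 to 251) in Diet 3, 148 (102 to 214) in Diet 4, 114 (79.6 to 168) in Diet 5, 122 (108 to 205) in Diet 6, against 191 (90.5 to 239) in the Diet 1 fish, and was listed for Diet 5 (-0.66 ± 0.19). With library totals alone, C3 moved to 0.04 with Diet 6, against -0.42 under TMM scaling, so its direction there depends on the scaling. TMEM70, an assembly factor of the ATP synthase, had a median of 20.1 (14.2 to 24.8) CPM with Diet 2, 16.6 (11.2 to 23.98) in Diet 3, 17.9 (15.7 to 36.1) in Diet 4, 25.4 (15.9 to 31.9) in Diet 5, 15.5 (12.8 to 37.7) in Diet 6, against 14.02 (11.9 to 30.3) in the Diet 1 fish, and was higher with Diet 5, which chose it (0.65 ± 0.18).

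Of the ubiquinone contigs, COQ8A was listed for 4 diets, more than any other of the 43. COQ8A is an atypical kinase needed to make ubiquinone, and had a median of 10.1 (6.21 to 15.97) CPM with Diet 2, 12.3 (9.15 to 16.6) in Diet 3, 10.3 (4.74 to 13.7) in Diet 4, 7.41 (5.28 to 15.2) in Diet 5, 6.19 (3.84 to 16.6) in Diet 6, against 17.2 (9.69 to 26.2) in the Diet 1 fish. Its log2 fold changes were -0.77 ± 0.21 for Diet 2, -0.85 ± 0.21 for Diet 4, -1.18 ± 0.23 for Diet 5 and -1.17 ± 0.27 for Diet 6. In Diet 3, which did not list it, all 9 fish were also below the Diet 1 median, at -0.53 ± 0.18. That value shares its Diet 1 fish with the contrasts that chose COQ8A, so it is not a separate result. With the exocrine markers as a covariate, COQ8A was at -0.83 with Diet 5 and -0.63 with Diet 6. Electron transfer flavoprotein-ubiquinone oxidoreductase (ETF-QO), which brings electrons from fatty acid and amino acid oxidation to ubiquinone, had a median of 16.6 (12.9 to 25.6) CPM with Diet 2, 17.3 (6.24 to 21.7) in Diet 3, 19.97 (10.9 to 30.6) in Diet 4, 28.96 (20.1 to 52.8) in Diet 5, 21.9 (14.4 to 42.6) in Diet 6, against 14.6 (7.05 to 25.01) in the Diet 1 fish. Both diets listed it. The difference with Diet 5, 1.19 ± 0.23, was past the thresholds, and that with Diet 6, 0.76 ± 0.24, was not.

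All 5 contigs of protein import and folding were listed for Diet 5, and 4 were past the thresholds there as higher, where 2.53% of all contigs were. HSP10, at 0.36 ± 0.29, was not. The Diet 5 contrast chose all 5, so its values are a description, and nothing is read from that count. The 5 had a median log2 fold change of 0.72 against 0.36 in Diet 6, 0.23 in Diet 4, 0.13 in Diet 3 and 0.27 in Diet 2. Tim8B, Tim10 and Tim13 are small chaperones of the intermembrane space, TIM44 ties the import motor to the inner membrane channel, and HSP10 is the partner of the chaperonin HSP60. Tim10 had a median of 31.1 (28.4 to 44.4) CPM with Diet 2, 32.6 (12.5 to 48.95) in Diet 3, 39.7 (25.6 to 58.03) in Diet 4, 48.8 (29.7 to 71.4) in Diet 5, 42.3 (32.4 to 66.2) in Diet 6, against 26.4 (19.8 to 42.2) in the Diet 1 fish. It was also listed for Diet 6, and its values were 0.77 ± 0.18 with Diet 5 and 0.68 ± 0.17 with Diet 6, with every fish of both diets above the Diet 1 median.

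Tim13 had a median of 31.3 (20.6 to 39.9) CPM with Diet 2, 23.7 (16.4 to 31.6) in Diet 3, 27.5 (19.4 to 58.00) in Diet 4, 42.9 (35.7 to 61.7) in Diet 5, 27.2 (20.7 to 80.3) in Diet 6, against 20.4 (13.01 to 54.2) in the Diet 1 fish, and Diet 5 stood at 0.90 ± 0.22. For Tim8B the median was 23.9 (17.4 to 29.9) CPM with Diet 2, 23.7 (21.7 to 27.7) in Diet 3, 24.98 (14.2 to 28.1) in Diet 4, 30.6 (24.9 to 48.2) in Diet 5, 22.6 (18.3 to 39.9) in Diet 6, against 22.2 (15.2 to 29.9) in the Diet 1 fish. Its log2 fold change with Diet 5 was 0.64 ± 0.16, with 4 of 8 fish above every Diet 1 fish. TIM44 had a median of 8.79 (6.44 to 12.6) CPM with Diet 2, 9.102 (7.29 to 11.3) in Diet 3, 9.77 (6.73 to 10.4) in Diet 4, 13.01 (7.99 to 16.5) in Diet 5, 9.46 (5.35 to 12.7) in Diet 6, against 8.69 (4.08 to 10.9) in the Diet 1 fish. In Diet 5 it was at 0.72 ± 0.18, and 7 of 8 fish exceeded every fish of Diet 1.

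HSP10 had a median of 54.1 (45.5 to 76.6) CPM with Diet 2, 59.00 (34.9 to 78.7) in Diet 3, 64.4 (47.9 to 83.4) in Diet 4, 79.6 (53.2 to 98.4) in Diet 5, 54.1 (45.2 to 169.9) in Diet 6, against 44.97 (33.5 to 189) in the Diet 1 fish. Its value with Diet 5 rested on 1 control fish: the log2 fold change was 0.36 ± 0.29 with all fish and 0.80 ± 0.14 without Diet 1 replicate 7, the fish at 189 CPM. With Diet 6, the values were 0.36 with that fish and 0.78 without it. ABCB8, an inner membrane transporter, was at 0.83 ± 0.43 in the Diet 6 comparison with all fish and at 1.40 without the same control fish.

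**Figure D2:**
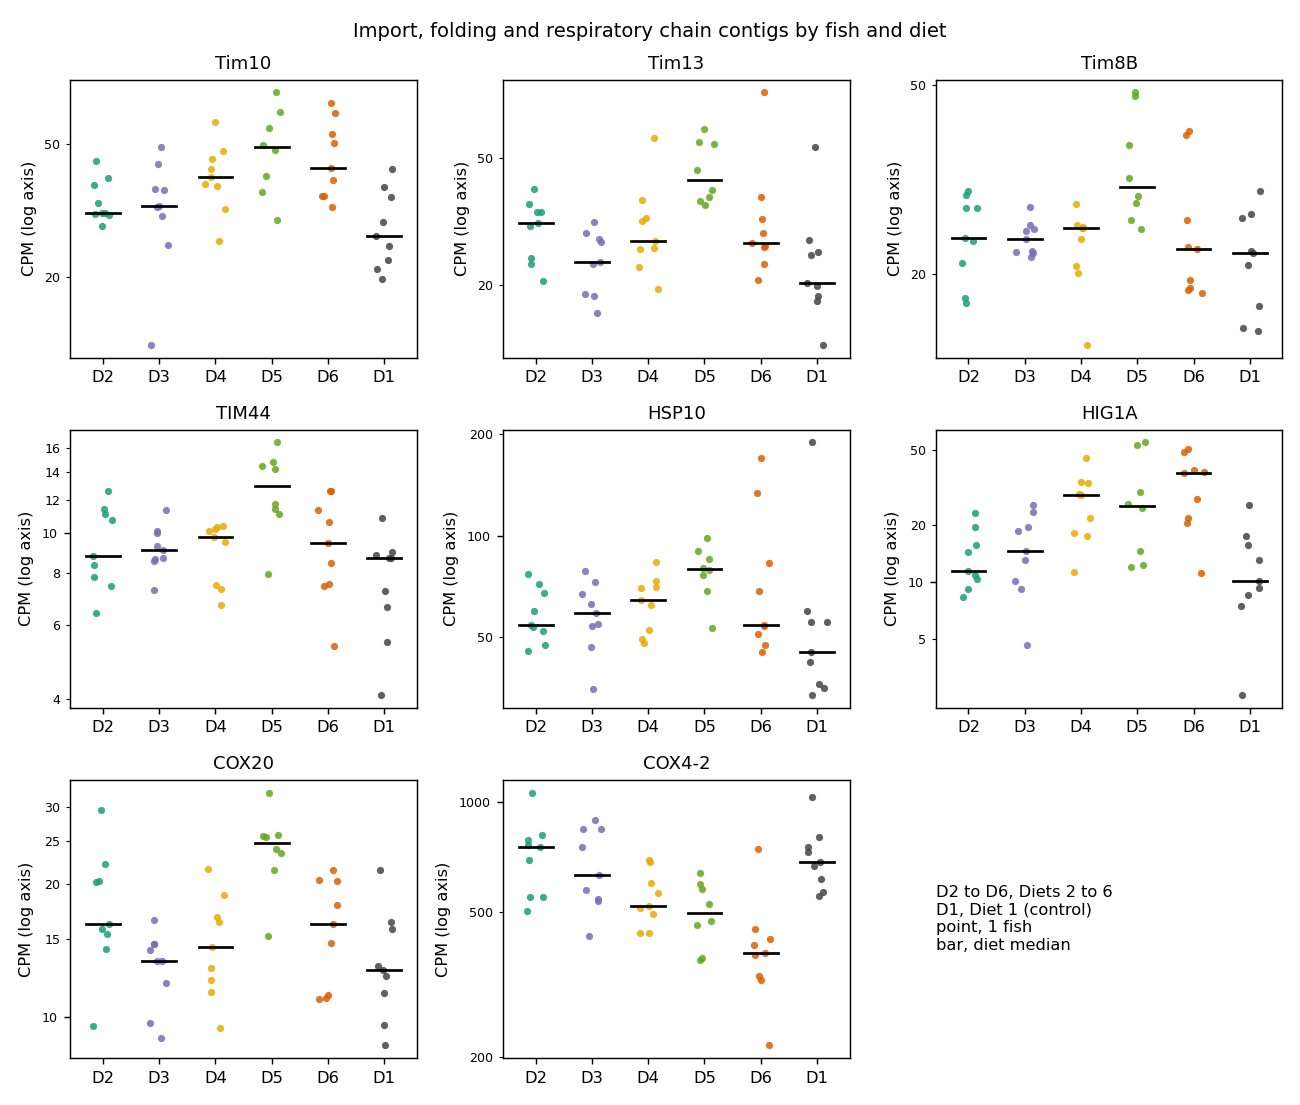
Level of 8 nuclear contigs of import, folding and the respiratory chain in each fish (CPM, TMM-scaled, log axis) by diet. Points are fish and bars are diet medians. In the Tim10 panel the Diet 5 fish lie between 29.7 and 71.4 and the Diet 1 fish between 19.8 and 42.2, and in the HSP10 panel 1 fish of Diet 1 stands at 189.

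The 6 contigs of amino acid and nitrogen metabolism had a median log2 fold change of -0.90 with Diet 6 and -0.05 with Diet 5. The Diet 6 contrast chose 3 of the 6 and the Diet 5 contrast chose 4, so these medians are a description. As for the mitochondrial genome, the size with Diet 6 depends on the scaling. Glutamate dehydrogenase (GDH), which releases ammonia from glutamate, had a median of 1669 (1358 to 1875) CPM with Diet 2, 1875 (1226 to 2878) in Diet 3, 1568 (995 to 2267) in Diet 4, 1294 (1072 to 1744) in Diet 5, 976 (808 to 2283) in Diet 6, against 2547 (1636 to 3009) in the Diet 1 fish. Both diets listed it, at -0.85 ± 0.14 with Diet 5 and -0.94 ± 0.21 with Diet 6, and every fish of Diets 2, 4, 5 and 6 was below the Diet 1 median. Arginase-2, which splits arginine into ornithine and urea, had a median of 14.6 (8.101 to 48.03) CPM with Diet 2, 19.3 (1.97 to 41.1) in Diet 3, 13.2 (4.67 to 26.4) in Diet 4, 16.9 (6.901 to 26.5) in Diet 5, 14.8 (4.998 to 61.6) in Diet 6, against 44.9 (6.51 to 149.9) in the Diet 1 fish. It was listed for Diets 2, 4 and 5, at -1.56 ± 0.46, -2.19 ± 0.47 and -1.84 ± 0.44, but its spread within Diet 1 was wide and every diet overlapped Diet 1. With the exocrine markers as a covariate, the values of arginase-2 came to -0.56 in Diet 2, -1.13 in Diet 4 and -0.35 in Diet 5.

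Glutaminase, which releases ammonia from glutamine, had a median of 1.39 (0.571 to 2.89) CPM with Diet 2, 0.922 (0.0789 to 14.2) in Diet 3, 0.41 (0.227 to 3.53) in Diet 4, 4.69 (0.123 to 6.12) in Diet 5, 0.698 (0 to 2.07) in Diet 6, against 3.29 (0.671 to 7.77) in the Diet 1 fish. The fish at 0 was Diet 6 replicate 9, where a count of 0 allows a level of up to 0.189 CPM (3 counts, counting error only). It was listed for Diet 2 (-0.90 ± 0.43) and Diet 6 (-1.67 ± 0.53), and with the exocrine covariate these values were -0.18 and -0.75. In Diet 4, which did not list it, the value was -1.71 ± 0.57, and in Diet 5 it was 0.28 ± 0.51, against the same Diet 1 fish. Alpha-aminoadipate aminotransferase, an enzyme of lysine breakdown, was at -0.86 ± 0.12 with Diet 6, which chose it. All 9 Diet 6 fish were below all of Diet 1, where the fish did not overlap in 0.276% of all contigs. N-acetylglutamate synthase (NAGS), which makes the activator of the urea cycle, was at 0.94 ± 0.27 with Diet 5, and PP1K, the phosphatase that activates branched-chain ketoacid breakdown, was at 1.04 ± 0.26.

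Of the 3 contigs of folate and choline metabolism, 2 act on successive stages of choline breakdown and both were lower with Diet 5, which chose them. Choline dehydrogenase (CHDH), the entry step, was at -0.64 ± 0.14. Dimethylglycine dehydrogenase (DMGDH), which turns dimethylglycine into sarcosine, had a median of 55.1 (32.2 to 96.8) CPM with Diet 2, 53.98 (29.04 to 179) in Diet 3, 30.2 (21.1 to 51.1) in Diet 4, 37.7 (15.97 to 54.7) in Diet 5, 32.2 (20.6 to 61.4) in Diet 6, against 63.1 (31.6 to 155) in the Diet 1 fish. It was among the listed contigs of Diet 4 (-1.15 ± 0.27), Diet 5 (-1.01 ± 0.29) and Diet 6 (-0.99 ± 0.27), and every fish of these 3 diets was below the Diet 1 median. A methylenetetrahydrofolate dehydrogenase of the folate cycle was higher with Diet 5, at 0.97 ± 0.22, and stood at -0.27 ± 0.22 with Diet 6. Under library totals alone the median of the 3 contigs with Diet 6 was 0.18, against -0.27 under TMM scaling. No direction is therefore given for the 3 as a set in that diet.

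Carbon and lipid metabolism held 6 contigs, each listed for 1 diet. Mitochondrial phosphoenolpyruvate carboxykinase (PEPCK-M), an enzyme of gluconeogenesis, was at -0.63 ± 0.12 with Diet 6, which chose it. All 9 fish were below all of Diet 1, where the fish did not overlap in 0.276% of all contigs. ACAT1, which joins and splits acetoacetyl-CoA, was at -0.68 ± 0.17 with Diet 6, while GPAT1, which starts glycerolipid synthesis, was at 0.62 ± 0.18. Neither was past the thresholds. Across fish, with diet means taken out, ACAT1 had an r of 0.60 with a score of the exocrine markers. Pyruvate dehydrogenase kinase 2 (PDK2), which turns off pyruvate dehydrogenase, was at -0.70 ± 0.20 with Diet 2. OGDHL, a relative of the 2-oxoglutarate dehydrogenase subunit, was at -1.57 ± 0.45 with Diet 5, and phosphatidylserine decarboxylase (PISD) at 0.81 ± 0.40.

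The remaining nuclear contigs were also listed for 1 diet each. With Diet 6, the magnesium channel MRS2 had the lowest value of the 20 listed, -1.86 ± 0.39, and ABCB8 is given above. With Diet 5, CLUH, which binds mRNAs of nuclear mitochondrial genes, was at -0.74 ± 0.19, mitochondrial elongation factor G (EF-G) at 1.00 ± 0.25, methionyl-tRNA synthetase (MetRS) at -0.58 ± 0.22 and a deoxyribonucleotidase at -0.52 ± 0.19. CYP24A1, which inactivates vitamin D, was at -1.30 ± 0.55 with Diet 2. Its value with Diet 4, which did not list it, was nearly the same, -1.25 ± 0.51. Both values use the same Diet 1 fish, which ran from 37.0 to 1055 CPM, so they are not separate results.

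The 2 contigs that match by name alone behaved differently from each other. CYB5R2 had a median of 341 (141 to 531) CPM with Diet 2, 189.6 (131 to 427) in Diet 3, 265 (59.8 to 313) in Diet 4, 302 (158 to 638) in Diet 5, 117 (67.5 to 185) in Diet 6, against 148 (79.4 to 312) in the Diet 1 fish. It was listed for Diets 2 and 5, at 0.89 ± 0.30 and 0.82 ± 0.29, and stood at -0.57 ± 0.25 with Diet 6. CYBA had a median of 21.1 (14.6 to 44.9) CPM with Diet 5, against 14.4 (7.62 to 18.7) with Diet 1, a log2 fold change of 0.80 ± 0.22. The 2 other phagocyte oxidase transcripts with a name, neutrophil cytosol factors 1 and 4, summed to 12.1 to 36.2 CPM in Diet 5, against 5.44 to 14.9 CPM in Diet 1. The part of phagocyte content in the CYBA value was not tested.

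Against Diet 1, 34 of the 57 listed changes passed an adjusted p of 0.05 and a 1.5-fold change in the edgeR fit used here, and no unlisted change did. With Diet 5, 14 of the 43 contigs were past these thresholds as higher and 8 as lower, where 2.53% and 2.67% of all contigs were. With Diet 6, 2 were past them as higher and 10 as lower, where 0.583% and 0.562% of all contigs were. That split rests on the scaling: with library totals alone 15 were past them as higher and 1 as lower, where 19.6% and 0.327% of all contigs were. For Diet 5, library totals alone gave 14 higher and 4 lower, where 3.17% and 1.58% of all contigs were. With Diet 2, 0 were past them in either direction, where 0.0329% of all contigs were higher and 0.011% lower, and in Diets 3 and 4 it was 0 of the 43 and 0% of all contigs in each direction. The contigs were chosen by these same contrasts, so nothing is read from these counts. Among listed changes the smallest was 0.36 (HSP10, Diet 5), and unlisted changes reached -1.71 (glutaminase, Diet 4) and -1.65 (arginase-2, Diet 6).

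**Figure D3:**
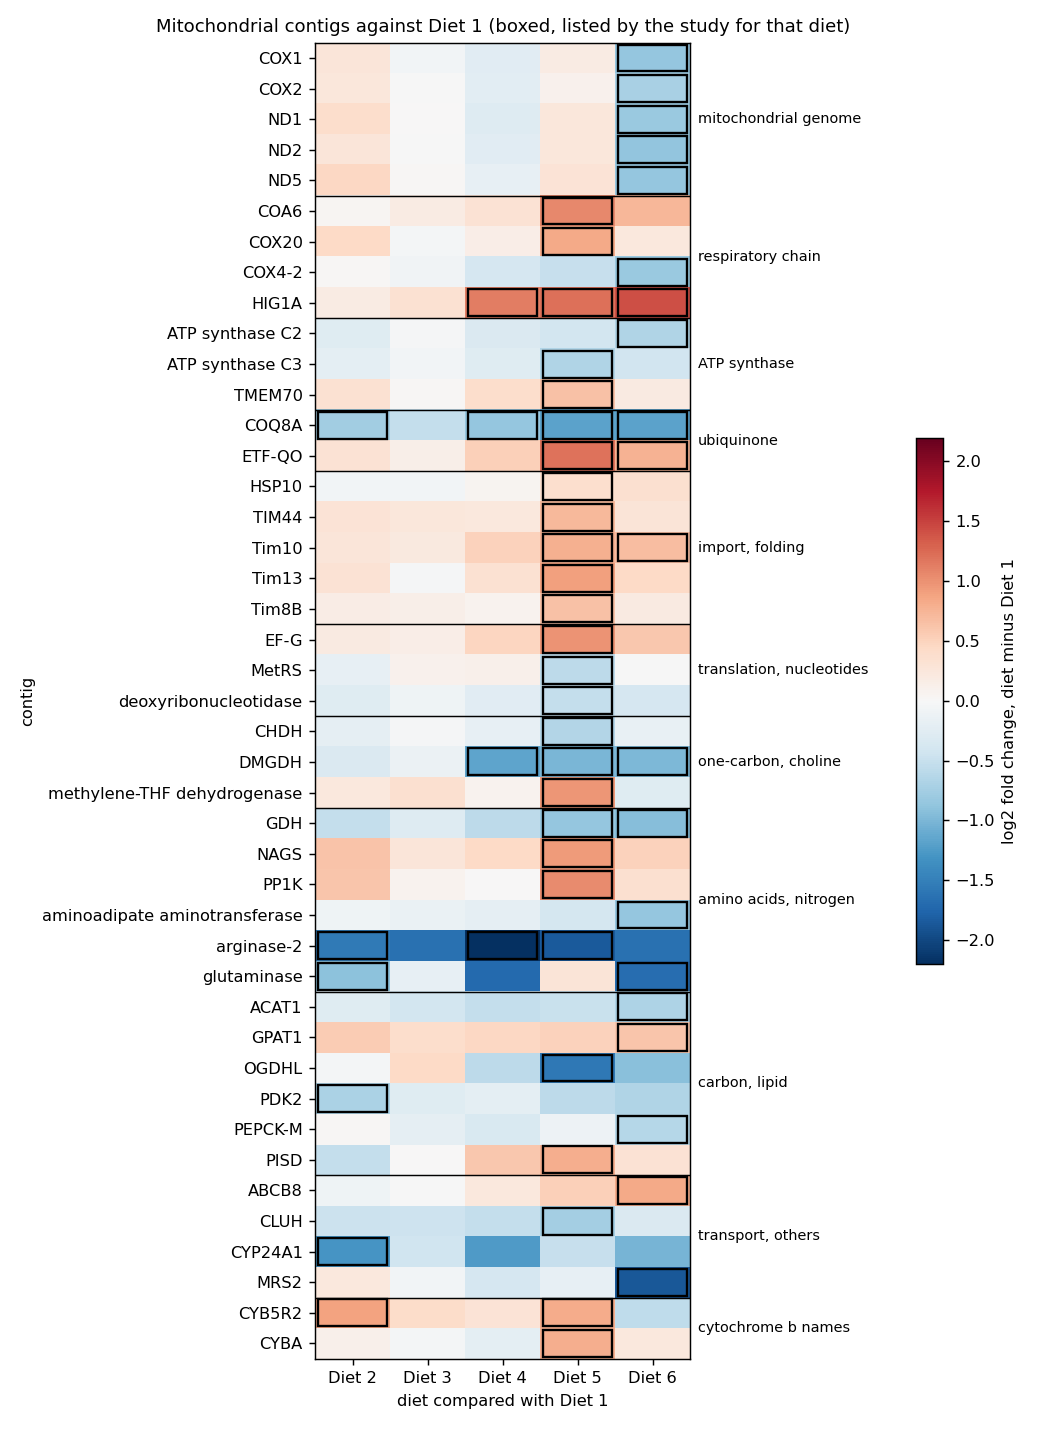
Log2 fold change of each of the 43 contigs (rows, grouped by role) in Diets 2 to 6 against Diet 1 (columns); the colour scale gives the log2 value and marked cells are changes the study listed. The 5 contigs of the mitochondrial genome lie between -0.87 and -0.71 in the Diet 6 column and between 0.10 and 0.30 in the Diet 5 column.

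Pairs of test diets gave tests that did not use the contrasts with which a contig was chosen. A contig was tested in a pair of Diets 2 to 6 only when neither diet had listed it, which left 222 tests in 10 pairs for 42 of the contigs and none for COQ8A. Diet 1 entered none of them. Both diets of such a pair had stayed unlisted against Diet 1 for that contig, which favours small differences between them. The pairs of all contigs were not restricted in this way, so their shares are not a like comparison. In edgeR's quasi-likelihood test with Benjamini-Hochberg adjustment over all contigs, 0 of the 222 tests passed an adjusted p of 0.05 and a 1.5-fold change, where 1.26% of all 96107 contig tests did. DESeq2 called 5 of 219, where it called 2.32% of all contig tests, and edgeR with library totals alone called 11 of 222, where it called 5.64%. At an unadjusted p under 0.05 there were 39 of 222 (17.6%), where 12.9% of all contig tests were, and with the fold threshold as well 9 (4.05%), where 5.06% of all were. The fish of the 2 diets did not overlap in 0 of the 222 tests, where they did not in 0.291% of all contig tests.

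By pair, the share of all contigs called was 0.043% for Diet 3 against Diet 2, 0.0214% for Diet 4 against Diet 2, 1.37% for Diet 5 against Diet 2 and 2% for Diet 6 against Diet 2. It was 0% for Diet 4 against Diet 3, 4.05% for Diet 5 against Diet 3, 0.493% for Diet 6 against Diet 3, 1.77% for Diet 5 against Diet 4, 0.211% for Diet 6 against Diet 4 and 2.6% for Diet 6 against Diet 5. The 9 tests past the unadjusted p and the fold were ND1 and ND5 in Diet 4 against Diet 2, ABCB8 in Diet 5 against Diet 2, OGDHL in Diets 4 and 6 against Diet 3, the methylenetetrahydrofolate dehydrogenase in Diet 6 against Diet 3, CYB5R2 in Diet 6 against Diets 3 and 4, and glutaminase in Diet 5 against Diet 4. They were spread over roles and pairs.

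The 5 contigs of the mitochondrial genome were open in 6 pairs, 30 tests, and 14 of these had an unadjusted p under 0.05, where 12.6% of all contig tests in these pairs did. The 5 contigs moved together across fish (r of 0.760 to 0.921), so the 14 are not separate results. With Diet 4 against Diet 2 the 5 stood at log2 values of -0.65 to -0.48, with adjusted p of 0.228 to 0.381 (edgeR). ND1 was at -0.65 ± 0.17 (95% interval -0.98 to -0.32) and COX1 at -0.51 ± 0.14 (-0.78 to -0.24). With Diet 5 against Diet 4 they stood at 0.35 to 0.54, with adjusted p of 0.0643 to 0.160 (edgeR). Here ND1 was at 0.54 ± 0.15 (0.24 to 0.84) and COX1 at 0.45 ± 0.14 (0.18 to 0.72). In edgeR these differences missed the threshold, with intervals on 1 side of 0. The intervals take fish as independent, while the T tag means of COX1 in Diet 4 ran from 16523 to 24897 CPM. DESeq2 called ND1 and ND5 in Diet 4 against Diet 2 (adjusted p = 0.0406 and 0.0456) and none of the 5 in Diet 5 against Diet 4.

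These values included 2 fish that stood apart. Diet 2 replicate 5 and Diet 4 replicate 7 were the highest fish of their diets in all 5 contigs. Without both, a choice made after their values were seen, ND1 was at -0.64 with Diet 4 against Diet 2 and 0.66 with Diet 5 against Diet 4, and COX1 at -0.57 and 0.55. In the other 4 open pairs the 5 contigs differed by log2 values between -0.44 and 0.30. Between Diet 5 and Diet 2 the differences were -0.13 to 0.00, the 95% interval for COX1 was -0.26 to 0.13, and adjusted p was 0.558 to 0.994 (edgeR).

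**Figure D4:**
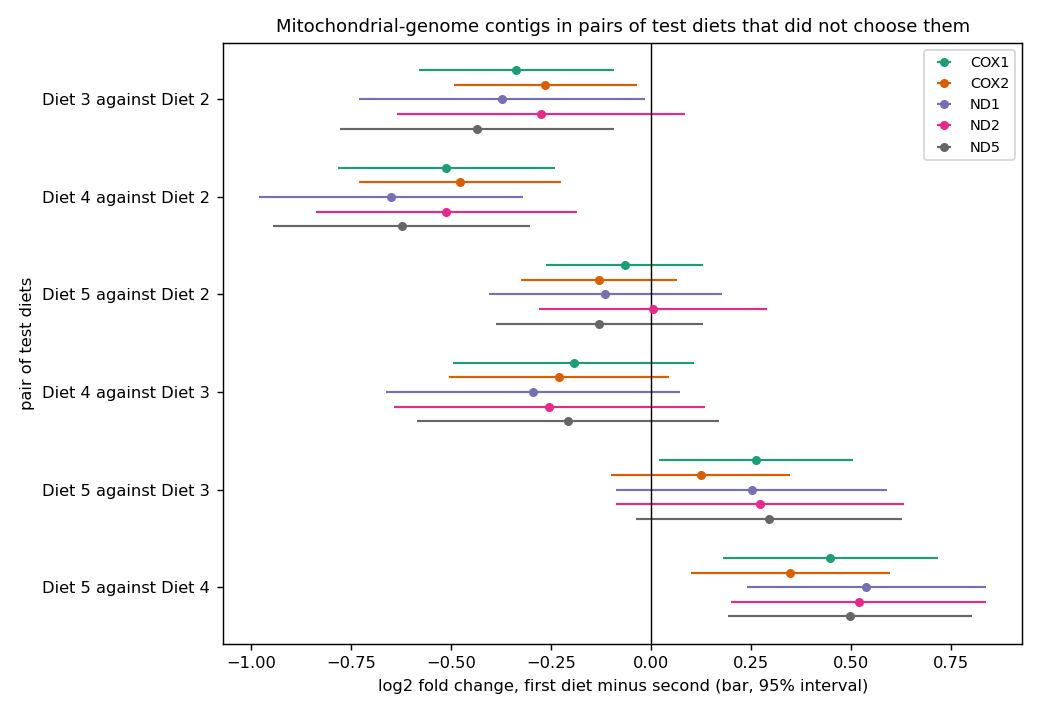
Log2 difference of the 5 contigs of the mitochondrial genome in pairs of test diets, first-named diet minus second, with 95% intervals. In Diet 4 against Diet 2 the 5 points lie at -0.65 to -0.48, and in Diet 5 against Diet 4 at 0.35 to 0.54 (the 6 pairs shown are those in which neither diet listed them).

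Outside the mitochondrial genome, the smallest adjusted p in an open pair was 0.0567 in edgeR, for ABCB8 in Diet 5 against Diet 3 (0.56 ± 0.17). CYB5R2 was at -0.97 ± 0.23 in Diet 6 against Diet 3 (interval -1.43 to -0.51, adjusted p = 0.0631 in edgeR). COX4-2 was at -0.51 ± 0.15 in Diet 5 against Diet 2 (adjusted p = 0.0769 in edgeR), and glutaminase at 2.00 ± 0.62 in Diet 5 against Diet 4 (adjusted p = 0.0934 in edgeR). Glutaminase was thus the widest of these differences and also the least precise. In Diet 4 against Diet 3, the pair with most contigs open (39), the smallest adjusted p was 0.982.

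Pairs that used a listed diet are given as values only. In Diet 6 against Diet 2, COX1 was at -1.10 ± 0.20 and ND5 at -1.28 ± 0.17, and in Diet 6 against Diet 5 they were at -1.02 ± 0.20 and -1.15 ± 0.16. The fish of the 2 diets did not overlap in 8 such cases. These were COX1, COX2, ND5, the aminoadipate aminotransferase and MRS2 in Diet 6 against Diet 2 (0.421% of all contigs did not overlap there), COX1 and ND5 in Diet 6 against Diet 5 (0.532%), and Tim13 in Diet 5 against Diet 3 (0.98%), at 0.94 ± 0.15. Each contig was listed for a diet of its pair, so nothing is read from these counts.

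Differences between T tags within a diet, and between L tags beside diet, were not the contrasts that chose the contigs. They are part of the spread within diets, and listing favours contigs with a small spread. The shares over all contigs are therefore not a like comparison. For the T tags, 0 of the 43 contigs were called at an adjusted p of 0.05 (edgeR), where 0.251% of all contigs were. With limma voom it was also 0, where 0.178% of all contigs were called. At an unadjusted p under 0.05 there were 11 of the 43, where 7.75% of all contigs were, and with library totals alone 5, where 9.27% were. Among the 11 were ND5 (unadjusted p = 0.00189 in edgeR) and COX2 (0.0200). For the L tags, 1 of 43 was called, where 4.43% of all contigs were. It was ATP synthase C2, which was lower by log2 values of -0.32 in each of L tags L2L4 and L3L5 against L1L8 (adjusted p = 0.0176 in edgeR). Its means were 755 ± 185 CPM in L2L4 (n = 18) against 937 ± 209 CPM in L1L8 (n = 17; SD).

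Across the 53 fish, with each diet's mean taken out, the contigs of the mitochondrial genome moved together. Pearson's r of log2 CPM in their 10 pairs was 0.760 to 0.921 and Spearman's rho 0.637 to 0.910, each with p = 1e-05, the smallest that 100000 permutations within diets can give, and 1.8e-05 after adjustment over 18 relations. Leaving out the 2 fish farthest from the median gave r of 0.647 to 0.910, and within the 3 L tags r was 0.462 to 0.967. These contigs come from 1 genome and share each library, so the points also share its depth and scaling.

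COX1 had weaker relations with the nuclear contigs tested here. With COX4-2, the nuclear subunit of the same complex, r was 0.36 (adjusted permutation p = 0.0674) and rho 0.45 (0.00203). With ATP synthase C2, r was 0.21 (0.227) and rho 0.42 (0.00464), but r turned to -0.056 with T tag means taken out and -0.074 with library totals alone. Within the L tags it was 0.086, 0.817 and 0.527, so no direction is given for this relation. Tim10 ran the other way, with r of -0.42 (adjusted permutation p = 0.00182) and rho of -0.43 (0.00297), and r of -0.52, -0.46 and -0.27 within the L tags and -0.45 without the 2 farthest fish. ATP synthase C3 (r = 0.04), HIG1A (0.07), ETF-QO (-0.23), the exocrine marker score (-0.21) and the library total (-0.24) had adjusted permutation p between 0.158 and 0.775 for r. Across contigs, as a description, COX1 had a median r of -0.0085 with the 9547 others tested, with a 5th to 95th percentile range of -0.323 to 0.453.

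**Figure D5:**
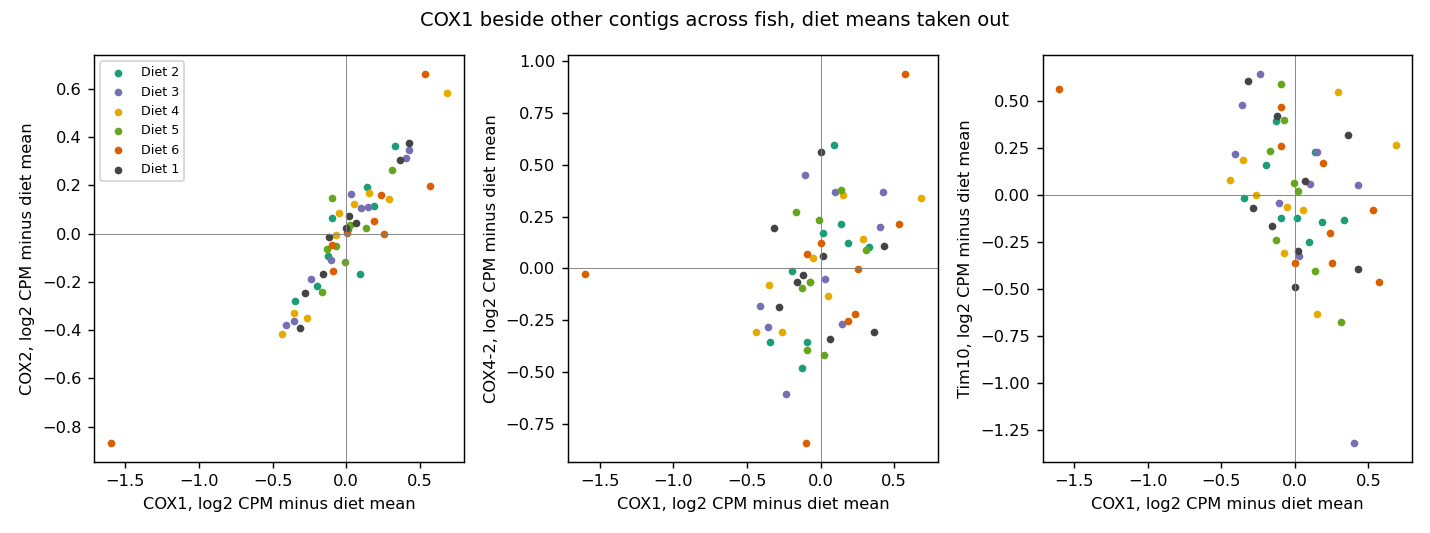
Log2 CPM of other measures against COX1 across 53 fish, each diet's mean taken out; a point is a fish and colours are diets. COX2 follows COX1 (r = 0.91), COX4-2 does so less closely (0.36), and Tim10 runs against it (-0.42).

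By likeness to COX1 across these 53 fish, the nearest named contigs were COX2, ND1 and ND5, in the first 3 places of all contigs, then protein FAM173B-like (r = 0.788) and ND2 (r = 0.760). Median r within other roles was 0.480 over the 10 pairs of import and folding contigs and 0.327 over the 3 of ATP synthase. Over all 903 pairs of the 43 contigs it was 0.031, and between the mitochondrial genome and the 36 nuclear contigs 0.039. Among these 36 nuclear contigs, GDH had the highest r with COX1, 0.571, and PP1K the lowest, -0.501. These are descriptions, since such pairs share a library.

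Other named mitochondrial contigs that the name rule leaves out number 10. With Diet 5, 8 of these were listed, where 651 of all 977 named contigs were, so nothing is read from that count. Among the 8 were cytochrome c-b, the electron carrier to cytochrome c oxidase, at 1.45 ± 0.31, and the mitochondrial ribosomal proteins S27 and L48 at 0.87 and 0.65. Acyl-CoA synthetase family member 2 was at -1.52. Carnitine O-palmitoyltransferase 1, which admits fatty acids to mitochondria, was at 1.07 with Diet 5, 0.78 with Diet 6 and 0.75 with Diet 2, and was listed for all 3. Glutathione reductase was at 0.92 with Diet 6. The coactivator PGC-1-alpha, a regulator of mitochondrial gene expression, was listed for Diet 2 at 0.79 ± 0.27. It was at 0.88 ± 0.34 with Diet 5, which did not list it, and neither value was past the thresholds. These contigs were also chosen by the contrasts with Diet 1 and carry no test.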

How the data were processed

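RNA-seq was run on liver RNA of 54 white bass, 9 for each of 6 diets. Per the labels and the methods of the study, stranded poly(A)-selected libraries were trimmed, aligned to a curated, redundancy-reduced white bass transcriptome and counted with eXpress. The submitters' processing notes name Trim Galore 0.6.5, cutadapt 2.7, Bowtie2 2.3.4.1, eXpress 1.5.1 and DESeq2 1.24.0. The authors deposited the resulting estimated counts per contig, 1 file per fish and not normalised. They were rounded to whole numbers here. eXpress divides reads among similar contigs, so near-identical contigs can share counts. The number of columns from samples outside the series was 0.

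The 43 contigs, the role groups and the lists were chosen with earlier results of these data known. All values against Diet 1 share the same Diet 1 fish, so a contig's values across diets are not separate results. Fish were taken as replicates. Fish of 1 tank share water, and the labels do not say what the T and L tags are, so p-values measure the spread between fish. Diets were compared in pairs with edgeR 4.0.16 in R 4.3.3 (quasi-likelihood F-test, TMM, mean count of at least 5 in the libraries of the pair). A contig was called at a Benjamini-Hochberg adjusted p under 0.05 over all contigs tested and a change over 1.5-fold. T tags within diets and L tags beside diet were tested in 1 fit of 53 libraries without a fold threshold. SE is the log2 fold change divided by the square root of F, and intervals take 1.96 SE. Log2 CPM used a prior count of 0.5. Correlations were two-sided permutation tests within diets with 100000 resamples (Python 3.11.15, NumPy 2.4.6, SciPy 1.17.1, pandas 2.3.3).

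Levels in all diets are given for contigs of the mitochondrial genome, the respiratory chain, ATP synthase, ubiquinone, and import and folding, and for those listed for 2 or more diets. The others are given by their fold changes. Alternatives were DESeq2 1.42.0, DESeq2 size factors, library totals alone, no filter, filterByExpr, limma 3.58.1 (voom), a block for the replicate number, a covariate for the L tag or for an exocrine marker score, sums of counts by T tag, 1 fit of all 53 libraries, no fold threshold, Diet 5 replicate 7 kept, and fish left out. The exocrine covariate in the comparisons with Diet 1, and leaving out Diet 6 replicate 7, or Diet 2 replicate 5 with Diet 4 replicate 7, were chosen after seeing the data. The scripts were tested on simulated data. The library of Diet 5 replicate 7 was left out for its 755 counts. Fold changes and p-values listed by the study were not used.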

Additional observations from a re-analysis of the deposited data

Results flagged for a closer look

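Each diet was examined in 24 contigs named with their levels, and in the share of counts taken by the mitochondrial genome. A fish was flagged when its gap to its nearest neighbour, over the diet's range, passed Dixon's 95% critical value. Gaps were taken in log2 CPM for contigs and in percent for the share, while levels are quoted in CPM. Of 150 groups 18 held such a fish, where 7.5 are expected by chance at 1 in 20.

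In the contigs of the mitochondrial genome the same 3 fish recurred. Diet 6 replicate 7 was low in COX1 (4087 CPM, the next fish 11591), ND2 (395, next 966) and ND5 (4996, next 8666), and in the mitochondrial share (2.26%, next 4.59%). Diet 2 replicate 5 was high in ND1 (14342 CPM, next 9455) and in the share (9.81%, next 7.86%). Diet 4 replicate 7 was high in ND1 (8971 CPM, next 5867) and in the share (8.26%, next 6.33%). The 5 contigs and the share are not independent of each other, so 1 fish can give several of the 18.

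Diet 1 replicate 7 was high in HSP10 (189 CPM, next 59.6) and in TMEM70 (30.3, next 19.1). Diet 6 replicate 6 was high in TMEM70 (37.7 CPM, next 20.5) and in Tim13 (80.3, next 37.8). Tim10 was low in Diet 3 replicate 1 (12.5 CPM, next 24.96), and Tim8B in Diet 4 replicate 1 (14.2, next 20.1). COA6 was low in Diet 1 replicate 8 (0.355 CPM, next 1.19) and in Diet 5 replicate 2 (1.39, next 3.15). COQ8A was low in Diet 4 replicate 6 (4.74 CPM, next 8.11). Glutaminase was at 0 CPM in Diet 6 replicate 9 (next 0.556), where the log2 value rests on the prior count of 0.5.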

How the results depend on the processing

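In pairs of test diets, 0 of 222 tests were called by edgeR and 1210 (1.26%) over all contigs. With library totals alone 11 member tests and 5424 (5.64%) over all contigs were called, with DESeq2 5 and 2092 (2.32%), with counts summed per T tag 0 and 276 (0.235%), and with the replicate block 1, ND2 in Diet 5 against Diet 4, and 822 (0.855%). Without Diet 2 replicate 5 and Diet 4 replicate 7, chosen after their values were seen, 4 were called: ND1 in Diet 4 against Diet 2, and ND1, ND2 and ND5 in Diet 5 against Diet 4, and 1113 over all contigs (1.17%). The other settings called 0, where 0.582% to 1.87% of all contig tests were called. Same-numbered fish, which carry the same L tag, had r of their deviations between -0.345 and 0.496. Numbers over 0.1 ran from 2 of 8 in Diet 6 against Diet 5 to 7 of 9 in Diet 4 against Diet 3. In these 2 pairs, 0 and 4 fish correlated best with their own number. Leaving out each fish in turn was not run for pairs, because no pair held a call. For the L tags, library totals alone called 2 contigs in place of 1.

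Against Diet 1, none of the 57 listed changes turned its sign under any alternative run. The count past the thresholds in Diet 2 was 1 without Diet 1 replicate 7 (0.518% of all contigs) and 1 with the exocrine covariate (0.12%), in place of 0 (0.0438%). In Diet 3 it was 1 with the replicate block (0.0535%) in place of 0 (0%). Diet 5 had 10 with the exocrine covariate (4.84%) in place of 22 (5.2%), and Diet 6 had 5 with the replicate block (0.787%) in place of 12 (1.14%). With library totals alone Diet 6 had 16 (20%). Of the correlations with COX1, that of ATP synthase C2 turned to -0.056 with T tag means taken out and -0.074 with library totals alone, that of ATP synthase C3 to -0.30 and -0.23, and that of HIG1A to -0.11 as Spearman's rho and -0.18 without the 2 farthest fish. The cause of these changes was not tested. Contigs under about 1 CPM, such as glutaminase in Diets 4 and 6, rest on few counts.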
